A study of Mus musculus with 12 samples.

Results

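The genes described are 34 coagulation and fibrinolysis genes, taken by name from the 23284 genes of a mouse liver expression table where their mean was above 0 FPKM (fragments per kilobase of transcript, with library size taken into account, a measure scaled to transcript length). They comprise the 3 fibrinogen chains, 4 vitamin K-dependent clotting factors, 7 cofactors and other clotting factors, 2 genes of the contact system, 2 of the vitamin K cycle, 9 inhibitors of clotting, 4 genes of plasmin formation and 3 inhibitors of fibrinolysis. Every liver was labelled Apoa1-/- Apoe-/-, a double knockout (DKO) of Apoa1, whose product forms high-density lipoprotein, and of Apoe, whose product guides the uptake of lipoprotein remnants. DKO/hA1 livers carried a human APOA1 gene as well. Mice had eaten a high-fat Western diet or standard chow for 22 weeks. The groups were DKO/hA1 Western diet (3 libraries), DKO/hA1 chow (2), DKO Western diet (3) and DKO chow (4), and these n apply to every group value. The labels used here do not give age, sex, strain or the promoter of the transgene, and no liver without the double knockout was included. Nothing in the labels says that the samples of a group were separate animals, so p-values measure the spread between these samples. Group values are given as mean ± SD and log2 fold changes as value ± SE.

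Apoa1 had 122 to 239.8 FPKM in the DKO/hA1 libraries and 30.4 to 77.4 FPKM in the DKO libraries, and Apoe 12.9 to 89.8 FPKM over all 12. These values are above 0 in the knockouts, do not show which exons the reads came from and do not tell human from mouse transcripts. FPKM totals ran from 379689 to 578927 per library. Relative depth, read from the step of the lowest values, lay between 0.514 and 1.31 of DKO chow replicate 1. Only relative depth was known, which allows no counting interval for these values. All 10 hepatocyte markers were above 0 in every library, and the 34 genes together held 2.62 to 6.12% of the summed FPKM of the genes kept.

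Most proteins of blood clotting are made by hepatocytes and secreted into plasma. Clotting runs through a chain of proteases that ends with thrombin, which cuts fibrinogen into fibrin. Antithrombin, the protein C pathway and tissue factor pathway inhibitor hold the chain in check, and plasmin dissolves the clot. Endothelial cells, macrophages and other cells of the liver carry the receptors and cofactors on which several of these steps take place. Fibrinogen is also a class II acute-phase protein, one whose liver transcripts are induced by interleukin-6 through STAT3.

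The fibrinogen genes lie side by side on chromosome 3, Fgg at 83007724 to 83015049, Fga at 83026076 to 83033627 and Fgb at 83040141 to 83049863 (GENCODE M21, GRCm38, the same coordinates as the mm10 build named in the submitters' processing notes). Because their transcripts varied together, as described next, the bases before each gene's start are shown 5′ to 3′ from the RefSeq promoter table (GRCm38.p6), with matches to CTGGGA, known from rat fibrinogen genes as the core of the interleukin-6 response element, in capitals.
Fga, chr3:83025903-83026075, plus strand: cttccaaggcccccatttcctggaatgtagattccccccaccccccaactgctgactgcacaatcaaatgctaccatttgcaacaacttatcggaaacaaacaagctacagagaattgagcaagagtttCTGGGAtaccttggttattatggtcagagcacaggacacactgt
Fgb, chr3:83049864-83050113, minus strand: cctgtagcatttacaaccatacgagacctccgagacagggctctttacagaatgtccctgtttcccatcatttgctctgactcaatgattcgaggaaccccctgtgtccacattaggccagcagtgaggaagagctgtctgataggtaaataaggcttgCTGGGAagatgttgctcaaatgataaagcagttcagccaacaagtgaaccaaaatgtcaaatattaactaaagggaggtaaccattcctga
Fgg, chr3:83007474-83007723, plus strand: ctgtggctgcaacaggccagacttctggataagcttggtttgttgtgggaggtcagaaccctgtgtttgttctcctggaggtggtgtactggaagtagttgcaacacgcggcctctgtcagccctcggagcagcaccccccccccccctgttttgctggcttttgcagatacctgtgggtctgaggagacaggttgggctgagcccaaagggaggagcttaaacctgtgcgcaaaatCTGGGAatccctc
In the full table entry, 250 bases before to 50 bases after the RefSeq start, the match began 121 bases before the start in Fga, 91 bases before it in Fgb and 13 bases before it in Fgg. The RefSeq start of Fga lies downstream of the GENCODE start, just before which the 173 printed bases end. The position in Fga is therefore not counted from the end of the printed bases. Fgb had a further match, as TCCCAG on the opposite strand, at base 45 after the start, which is not shown. CTGGGA on either strand was found in 31.8% of the 32851 promoters in the table and in 12 of the 26 coagulation and fibrinolysis genes with an entry: Cpb2, F10, F2, F9, Fga, Fgb, Fgg, Klkb1, Procr, Pros1, Serpind1 and Tfpi. A match to 6 letters is a description of the sequence only.

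The 3 fibrinogen chains were among the most abundant of these transcripts and among the most variable between livers of the same group. Fga, which encodes the Aα chain, had 1165, 1046 and 5132 FPKM in DKO/hA1 Western diet replicates 1, 2 and 3, and 2081 and 2605 FPKM in DKO/hA1 chow replicates 1 and 2. It had 2234, 6077 and 4569.6 FPKM in DKO Western diet replicates 1, 2 and 3, against 2074, 1678, 1778 and 1306 FPKM in DKO chow replicates 1 to 4. Replicates 2 and 3 of DKO Western diet and replicate 3 of DKO/hA1 Western diet were the high libraries, and the other DKO/hA1 Western diet livers had the lowest values of all 12. Fgb, the Bβ chain gene, had 2265, 1909 and 8467 FPKM in DKO/hA1 Western diet, 3629 and 4192 FPKM in DKO/hA1 chow, 3866, 9614 and 7092 FPKM in DKO Western diet, and 3561, 2317, 3040.1 and 2239.7 FPKM in DKO chow. Fgg, the γ chain gene, had 1623, 1439 and 6618 FPKM in DKO/hA1 Western diet, 2671 and 3476 FPKM in DKO/hA1 chow, 3035, 7541 and 5639.9 FPKM in DKO Western diet, and 2523, 1977, 2386 and 1551 FPKM in DKO chow. For each chain the DKO Western diet libraries all lay above the DKO chow libraries, while the DKO/hA1 Western diet libraries spread on both sides of the DKO/hA1 chow pair.

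**Figure D1:**
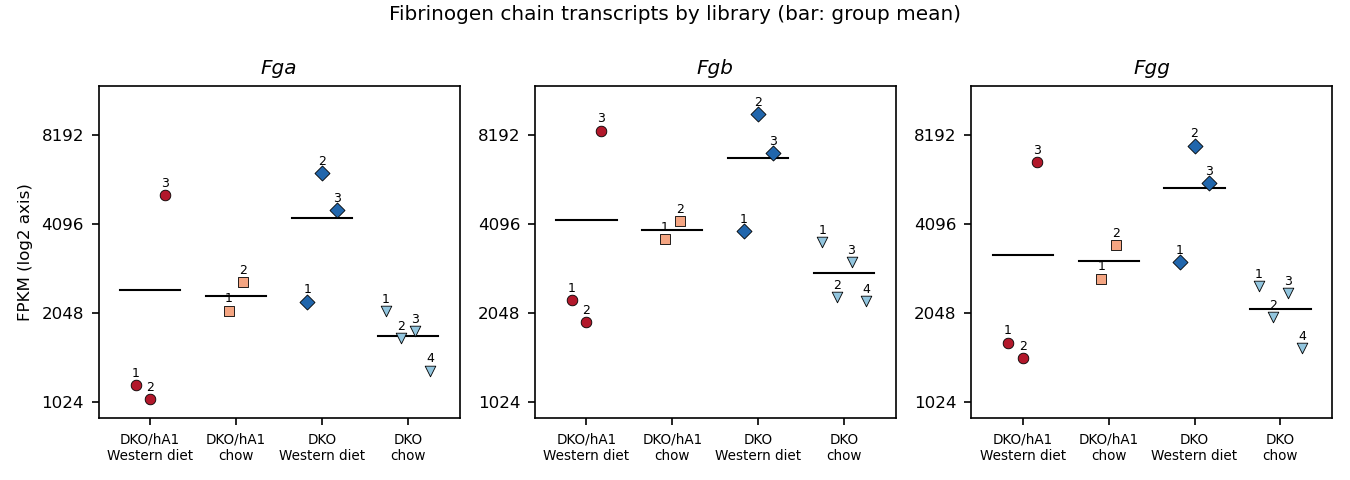
FPKM of Fga, Fgb and Fgg on a log2 axis in each library of the 4 groups, with replicate numbers beside the points and a bar at the group mean. The 3 chains keep the same pattern, with replicate 3 of DKO/hA1 Western diet and replicates 2 and 3 of DKO Western diet at the top of each panel.

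The chains kept close proportions although their level moved. Their summed FPKM ranged from 4393.9 in DKO/hA1 Western diet replicate 2 to 23231 in DKO Western diet replicate 2, a 5.29-fold range. Over the same libraries Fga made up 23.1 to 28.1% of the sum, Fgb 38.8 to 44.8% and Fgg 30.4 to 33.8%. On the log2 scale the SD over all 12 libraries was 0.83 for Fga, 0.78 for Fgb and 0.81 for Fgg, against 0.12 for the ratio of Fga to Fgb, 0.09 for Fgg to Fgb and 0.08 for Fga to Fgg. The within-group SD of the log2 level was 0.71 to 0.77 for the 3 chains, at the 97th percentile of all genes tested, and its median was 0.30 over the 33 coagulation and fibrinolysis genes tested and 0.20 over all 11548 genes tested.

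In DKO livers the log2 fold change between Western diet and chow was 1.16 ± 0.52 for Fga (adjusted p = 0.417), 1.16 ± 0.48 for Fgb (adjusted p = 0.376) and 1.21 ± 0.49 for Fgg (adjusted p = 0.370), from limma with Benjamini-Hochberg adjustment over all genes tested. In DKO/hA1 livers it was -0.36 ± 0.62, -0.25 ± 0.57 and -0.31 ± 0.59 for Fga, Fgb and Fgg. The difference between the diet effects, DKO/hA1 minus DKO, was -1.52 ± 0.81, -1.41 ± 0.74 and -1.52 ± 0.77 for Fga, Fgb and Fgg, with an adjusted p of 0.961 for each. None of these values passed the threshold of 0.05.

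The 3 libraries high in fibrinogen were also the 3 highest in neutrophil markers and in a list of 21 acute-phase genes. The summed FPKM of 10 neutrophil markers was 891 in DKO/hA1 Western diet replicate 3, 969.8 in DKO Western diet replicate 2 and 225 in DKO Western diet replicate 3, and 12.7 to 98.1 in the other 9 libraries. Of these markers, Ngp, Ltf, Camp, Mmp8, Elane and Retnlg were at 0 in at least 1 library. The mean log2 level of the acute-phase list was 8.38, 8.88 and 11.03 in DKO/hA1 Western diet replicates 1, 2 and 3, 7.70 and 8.49 in DKO/hA1 chow, 9.47, 11.31 and 10.63 in DKO Western diet, and 8.51, 8.33, 7.67 and 7.54 in DKO chow. The mean log2 level of the 3 chains was 10.65, 10.45 and 12.67 in DKO/hA1 Western diet, 11.40 and 11.73 in DKO/hA1 chow, 11.48, 12.87 and 12.45 in DKO Western diet, and 11.39, 11.06, 11.21 and 10.71 in DKO chow. DKO/hA1 Western diet replicates 1 and 2 thus had acute-phase means within the range of the chow livers or above it, and fibrinogen means below those of all 6 chow livers. What part neutrophils or the acute-phase response had in the fibrinogen values was not tested.

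**Figure D2:**
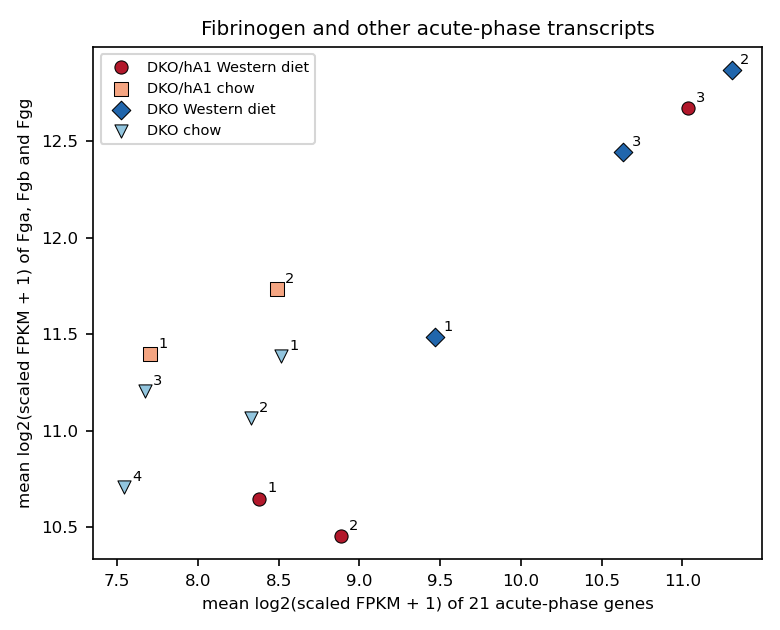
Mean log2(scaled FPKM + 1) of Fga, Fgb and Fgg against the mean log2(scaled FPKM + 1) of 21 other acute-phase genes, 1 point per library, with replicate numbers. DKO Western diet replicates 2 and 3 and DKO/hA1 Western diet replicate 3 stand at the upper right (acute-phase means 11.31, 10.63 and 11.03), and DKO/hA1 Western diet replicates 1 and 2 lie lowest on the fibrinogen axis (10.65 and 10.45).

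The 3 libraries highest in neutrophil markers held the 3 highest FPKM values for 10 of the 34 genes (29.4%), against 504 of the 11548 genes tested (4.36%). The 10 were Fga, Fgb, Fgg, F9, F10, Kng1, Serpina10, Pros1, Plg and Cpb2. They held the 3 lowest values for 2 of the 34 genes (5.88%), Klkb1 and Proc, against 288 of all genes tested (2.49%). DKO Western diet replicate 2 alone had the highest value of 16 of the 34 genes, and a Western diet library had the highest value of 27. The share of all genes tested for which either held was not counted. The 3 libraries also had the highest FPKM totals, 482824 in DKO/hA1 Western diet replicate 3 and 578927 and 563714 in DKO Western diet replicates 2 and 3. What part the totals had in these counts was not tested.

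**Figure D3:**
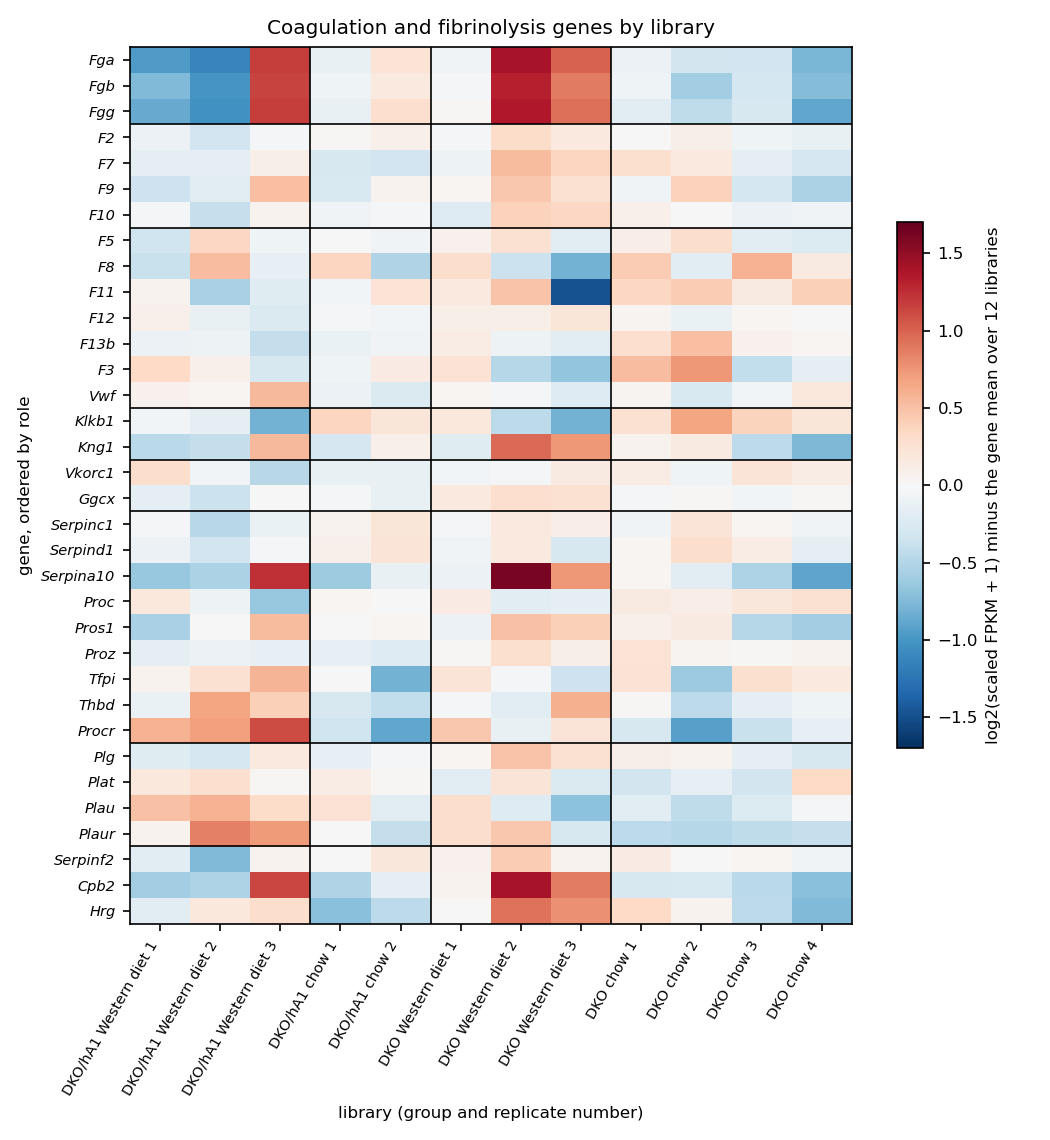
Log2(scaled FPKM + 1) of each of the 34 genes in each library minus the gene's mean over the 12 libraries, with genes in rows ordered by role and libraries in columns by group. The fibrinogen chains, Serpina10, Cpb2 and Kng1 are red in DKO/hA1 Western diet replicate 3 and DKO Western diet replicates 2 and 3, whereas Klkb1 is blue there.

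The vitamin K-dependent proteases varied less. F2, which encodes prothrombin, had 735, 631 and 774 FPKM in DKO/hA1 Western diet and 796 and 815 FPKM in DKO/hA1 chow. It had 785, 977 and 890.1 FPKM in DKO Western diet, against 767, 767, 731 and 707 FPKM in DKO chow. In these deposited FPKM values no library overlapped between diets in either genotype. Western diet lay below chow in DKO/hA1 livers and above it in DKO livers. The scale factor was 1.04 for DKO Western diet replicate 1 and 0.922 for DKO chow replicate 2. After division by the factors used in the test, the DKO groups overlapped. The changes were small, -0.20 ± 0.18 in DKO/hA1 and 0.17 ± 0.15 in DKO livers, and their difference of -0.37 ± 0.23 had an adjusted p of 0.961. F7 and F10 encode the proteases of the first steps after tissue factor, and F9 the protease that works with factor VIII. F7 ranged from 48.5 to 91.7 FPKM, F9 from 43.9 to 94.0 FPKM and F10 from 99.8 to 172 FPKM over the 12 libraries, and none of the 4 genes passed in any of the 7 comparisons.

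Vitamin K epoxide reductase (Vkorc1) recycles vitamin K, and γ-glutamyl carboxylase (Ggcx) uses it to modify the clotting factors just described. Ggcx had 19.2, 16.5 and 21.6 FPKM in DKO/hA1 Western diet, 21.2 and 19.2 FPKM in DKO/hA1 chow, 24.8, 26.5 and 25.99 FPKM in DKO Western diet, and 20.6, 19.8, 20.4 and 21.5 FPKM in DKO chow. The 3 DKO Western diet libraries thus lay above all 9 others. Ggcx had the smallest p of the 33 genes for genotype on Western diet, -0.40 ± 0.11 for DKO/hA1 over DKO, with an adjusted p of 0.727. The difference between its diet effects, DKO/hA1 minus DKO, was -0.35 ± 0.16 (adjusted p = 0.961). Vkorc1 ranged from 99.6 to 170.2 FPKM and its diet effect averaged over genotypes was -0.01 ± 0.13.

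Among the cofactors and other clotting factors, F12 (factor XII), F5 (factor V) and F13b (the carrier subunit of factor XIII) passed in none of the 7 comparisons. F12 ranged from 190.3 to 263 FPKM, with a within-group log2 SD of 0.10. F5 ranged from 68.2 to 111 FPKM with an SD of 0.26, and F13b from 54.5 to 95.0 FPKM with an SD of 0.19. F11, which encodes factor XI, was uneven: it had 38.9, 25.1 and 32.1 FPKM in DKO/hA1 Western diet, 36.0 and 42.9 FPKM in DKO/hA1 chow, 43.1, 52.9 and 12.8 FPKM in DKO Western diet, and 46.7, 46.3, 40.7 and 48.8 FPKM in DKO chow. The highest and the lowest F11 value of the study therefore stood in the same group, in DKO Western diet replicates 2 and 3.

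In the contact system, Klkb1 encodes prekallikrein and Kng1 high-molecular-weight kininogen. Klkb1 had 53.6, 50.04 and 31.3 FPKM in DKO/hA1 Western diet, against 71.4 and 62.5 FPKM in DKO/hA1 chow. It had 64.6, 40.8 and 31.4 FPKM in DKO Western diet, against 65.5, 80.7, 71.1 and 63.0 FPKM in DKO chow. In these deposited values the DKO/hA1 groups did not overlap, whereas DKO Western diet replicate 1 lay within the DKO chow range. The diet effect averaged over genotypes was -0.68 ± 0.18 with an adjusted p of 0.067, above the threshold. It was called in 1 of 23 settings, with an adjusted p of 0.023 to 0.241. That setting left out DKO Western diet replicate 1 (-0.81, adjusted p = 0.023). In DKO livers Klkb1 had the smallest p of the 33 genes, at -0.74 ± 0.24 (adjusted p = 0.277). Kng1 ranged from 621 FPKM in DKO chow replicate 4 to 2109 FPKM in DKO Western diet replicate 2. Reads of Kng1 and its close copy Kng2 may have been split between them by the authors' counting, and Kng2 averaged 308 ± 114 FPKM in DKO Western diet and 160.1 ± 42.7 FPKM in DKO chow.

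Among the plasma inhibitors of clotting made by hepatocytes, antithrombin (Serpinc1) averaged 686 ± 107 FPKM in DKO/hA1 Western diet, 850.2 ± 45.6 FPKM in DKO/hA1 chow, 839 ± 50.6 FPKM in DKO Western diet and 774 ± 45.6 FPKM in DKO chow. Heparin cofactor II (Serpind1) ranged from 179 to 256 FPKM. Protein C (Proc), the protease that inactivates factors V and VIII, ranged from 159 to 295 FPKM, and its cofactor protein S (Pros1) from 18.0 to 41.2 FPKM. Their within-group log2 SD was 0.16 for Serpinc1, 0.18 for Serpind1, 0.23 for Proc and 0.39 for Pros1, against the median of 0.20 over all genes tested. None of these 4 genes passed in any comparison.

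Protein Z (Proz) and the protein Z-dependent inhibitor (Serpina10) act together against factor Xa, yet their transcripts differed widely in spread. Serpina10 had 121, 132 and 454 FPKM in DKO/hA1 Western diet, 125 and 171 FPKM in DKO/hA1 chow, 183, 587 and 319 FPKM in DKO Western diet, and 192, 152, 129.6 and 100.4 FPKM in DKO chow. Its high libraries were those high in fibrinogen. Proz had 129.6, 134 and 130.2 FPKM in DKO/hA1 Western diet, 130.2 and 120.2 FPKM in DKO/hA1 chow, 149, 175 and 155 FPKM in DKO Western diet, and 166, 135, 143 and 146 FPKM in DKO chow. All 5 DKO/hA1 libraries lay below all 7 DKO libraries. With a within-group log2 SD of 0.09, Proz was the least variable of the 33 genes and had the smallest p of them for genotype averaged over diets, -0.26 ± 0.09, with an adjusted p of 0.437. On chow it also had the smallest p, at -0.27 ± 0.13 (adjusted p = 0.676). Serpina10 had a within-group log2 SD of 0.74.

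Of the genes of plasmin formation, Plg (plasminogen) is a hepatocyte transcript, and it had 812, 765 and 1043 FPKM in DKO/hA1 Western diet, 844 and 892 FPKM in DKO/hA1 chow, 981, 1308 and 1119 FPKM in DKO Western diet, and 975, 888, 819.5 and 754 FPKM in DKO chow. The DKO groups did not overlap in these deposited values but did after scaling. On the scaled values the diet effect in DKO livers was 0.33 ± 0.18 (adjusted p = 0.498). The inhibitors of fibrinolysis are α2-antiplasmin (Serpinf2), which blocks plasmin, the carboxypeptidase TAFI (Cpb2), which trims fibrin so that less plasminogen binds, and histidine-rich glycoprotein (Hrg), which binds plasminogen. Cpb2 had 177, 186 and 586 FPKM in DKO/hA1 Western diet, 186 and 234 FPKM in DKO/hA1 chow, 286, 709.6 and 490.3 FPKM in DKO Western diet, and 216, 202, 190.2 and 159 FPKM in DKO chow. Its diet effect in DKO livers, 1.21 ± 0.41 (adjusted p = 0.299), was of the size of those of the fibrinogen chains, and the high libraries were those 3 again. Hrg averaged 630.2 ± 103 FPKM in DKO/hA1 Western diet, 386 ± 44.4 FPKM in DKO/hA1 chow, 907 ± 275 FPKM in DKO Western diet and 509 ± 168 FPKM in DKO chow. Its diet effect was similar in size in both genotypes, 0.68 ± 0.35 in DKO/hA1 and 0.77 ± 0.29 in DKO livers, and averaged 0.72 ± 0.23 with an adjusted p of 0.102. Serpinf2 ranged from 245 to 561 FPKM.

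The 25 genes described so far were at or above 10 FPKM in every library. The other 9 did not exceed 5.12 FPKM in any, and they were Procr, Thbd, Tfpi, Vwf, F8, F3, Plau, Plaur and Plat. Both genes that passed a test, Procr and Plaur, were among these 9. At such levels the 1 FPKM added before the log2 makes a log2 fold change smaller than the ratio of the means.

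Procr, the endothelial protein C receptor, which presents protein C for activation, rose on Western diet. Procr (chromosome 2, 155751117 to 155755471) had 2.91, 3.22 and 4.56 FPKM in DKO/hA1 Western diet, against 1.04 and 0.381 FPKM in DKO/hA1 chow. It had 2.61, 1.37 and 2.01 FPKM in DKO Western diet, against 1.11, 0.324, 0.959 and 1.33 FPKM in DKO chow. All 6 Western diet libraries were higher than all 6 chow libraries. The diet effect averaged over genotypes was 1.01 ± 0.17 (adjusted p = 0.0099), and 1.66 with 0.1 FPKM in place of 1 added. In DKO/hA1 livers alone it was 1.41 ± 0.27 (adjusted p = 0.031), and in DKO livers 0.61 ± 0.22 (adjusted p = 0.328). The difference between these diet effects was 0.80 ± 0.35 with an adjusted p of 0.961, the smallest p of the 33 genes for this difference, so it is not shown that the genotypes differed.

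Procr was lowest in the 2 libraries with the least endothelial marker signal. The summed FPKM of 14 endothelial markers, all above 0 in every library, was 138 to 169 in DKO/hA1 Western diet, 72.0 to 188 in DKO/hA1 chow, 88.2 to 177 in DKO Western diet and 71.1 to 203 in DKO chow. The lowest sums, 72.0 and 71.1, were those of DKO/hA1 chow replicate 2 and DKO chow replicate 2, which also had the lowest Tfpi values, 1.31 and 1.51 FPKM. None of the 14 markers passed for diet averaged over genotypes. In bulk tissue, fewer cells of a type and less RNA per cell cannot be told apart. Without DKO/hA1 chow replicate 2 the averaged diet effect on Procr was 0.87 (adjusted p = 0.081), without both of these libraries 0.79 (adjusted p = 0.069), and in DKO/hA1 livers 1.14 without that replicate (adjusted p = 0.447), where the 1 DKO/hA1 chow library left is assumed to vary like the other groups.

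The macrophage marker sum was also higher on Western diet in both genotypes. The summed FPKM of 13 macrophage and Kupffer cell markers, none at 0 in any library, was 1510.5 to 2316 in DKO/hA1 Western diet, 244 to 610.3 in DKO/hA1 chow, 1020.1 to 1349 in DKO Western diet and 324 to 751 in DKO chow. The lowest sums, 244 and 324, were again those of DKO/hA1 chow replicate 2 and DKO chow replicate 2, the 2 libraries lowest in endothelial markers and Procr. Averaged over genotypes 8 of the 13 rose with diet, against 2.8% of all genes tested higher. In DKO/hA1 livers 8 of the 13 rose, against 1.08% of all genes higher. In DKO livers 0 of the 13 passed, against 0.113% of all genes in either direction. An index of clock genes that follows time of day was -3.36 to -1.58 in DKO/hA1 Western diet and -0.89 to -0.02 in DKO/hA1 chow, which do not overlap, and -2.69 to -1.09 in DKO Western diet and -3.84 to 0.25 in DKO chow, which overlap. The part of these measures in the Procr and Plaur values was not tested.

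Plaur, the receptor that holds urokinase on leukocytes and other cells, passed for diet averaged over genotypes, higher on Western diet, in a minority of settings. Plaur (chromosome 7, 24462484 to 24475968) had 1.22, 2.87 and 2.51 FPKM in DKO/hA1 Western diet, against 1.14 and 0.593 FPKM in DKO/hA1 chow. It had 1.66, 1.93 and 0.767 FPKM in DKO Western diet, against 0.545, 0.471, 0.554 and 0.610 FPKM in DKO chow. The groups of each genotype did not overlap between diets. The averaged diet effect was 0.67 ± 0.17 (adjusted p = 0.048), and it was called in 7 of 22 settings, with an adjusted p of 0.016 to 0.272. Plaur reached 1 FPKM in only 6 libraries, 5 of them on Western diet, so that it passed the level filter through the group in which it was higher. With no level filter its adjusted p was 0.073. Without the 2 libraries highest in neutrophil markers its diet effect was 0.55 (adjusted p = 0.169).

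**Figure D4:**
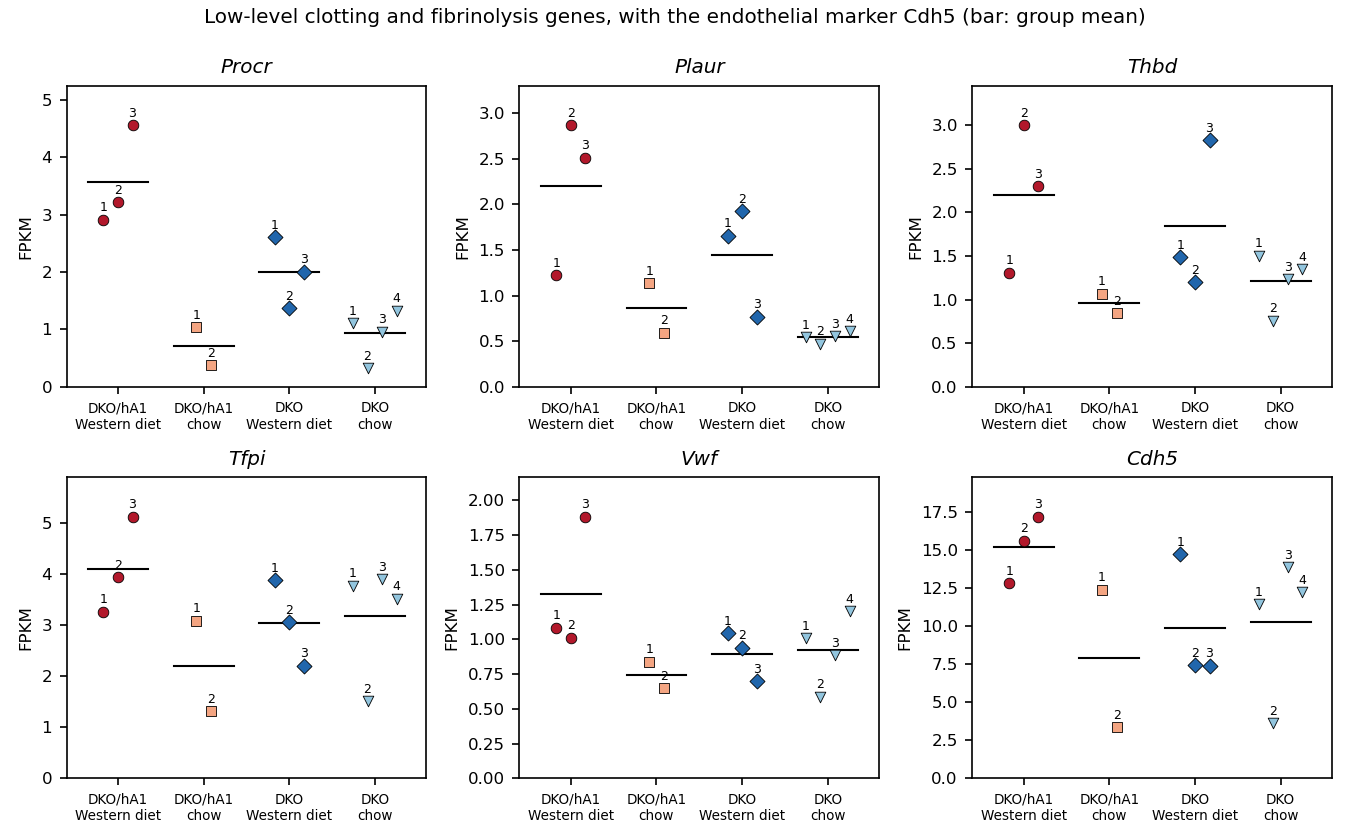
FPKM of Procr, Plaur, Thbd, Tfpi and Vwf and of the endothelial marker Cdh5 in each library of the 4 groups, with replicate numbers and a bar at the group mean. Procr is higher in every Western diet library than in any chow library, and DKO/hA1 chow replicate 2 and DKO chow replicate 2 are lowest for Cdh5 (3.35 and 3.603 FPKM), Procr and Tfpi.

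Thrombomodulin (Thbd), which turns thrombin towards protein C, had 1.31, 3.00 and 2.30 FPKM in DKO/hA1 Western diet, 1.07 and 0.845 FPKM in DKO/hA1 chow, 1.48, 1.20 and 2.83 FPKM in DKO Western diet, and 1.502, 0.760, 1.23 and 1.35 FPKM in DKO chow. Its averaged diet effect was 0.48 ± 0.17 with an adjusted p of 0.150. Tfpi, the inhibitor of tissue factor, averaged 4.10 ± 0.941 FPKM in DKO/hA1 Western diet, 2.20 ± 1.25 FPKM in DKO/hA1 chow, 3.04 ± 0.836 FPKM in DKO Western diet and 3.17 ± 1.12 FPKM in DKO chow. Tissue factor itself (F3), which starts clotting, ranged from 0.625 to 3.02 FPKM with no group apart from the others. F8 (factor VIII, the cofactor of factor IX, made mainly by endothelium) ranged from 0.903 to 3.93 FPKM, and Vwf (von Willebrand factor, its plasma carrier) from 0.587 to 1.88 FPKM.

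Plau encodes urokinase and Plat tissue plasminogen activator, the proteases that turn plasminogen into plasmin. Plau averaged 1.95 ± 0.298 FPKM in DKO/hA1 Western diet, 1.18 ± 0.460 FPKM in DKO/hA1 chow, 0.933 ± 0.684 FPKM in DKO Western diet and 0.805 ± 0.221 FPKM in DKO chow. For genotype on Western diet it differed by 0.67 ± 0.23 (adjusted p = 0.782). Plat ranged from 0.0621 to 0.664 FPKM, reached 1 FPKM in no library and was the only gene of the 34 left untested.

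The effect of Western diet addresses which of these genes changed with 22 weeks of the diet in livers labelled Apoa1-/- Apoe-/-. Averaged over genotypes, 2 of the 33 genes tested passed as higher, Procr and Plaur, the second of which entered the test mainly through Western diet libraries and was called in 7 of 22 settings. None passed as lower. Of all genes tested 4.01% passed (2.8% higher and 1.21% lower), so the number is near the background. At an unadjusted p under 0.05 there were 6 of 33, against 19.6% of all genes. In DKO/hA1 livers 1 of 33 rose, Procr, against 1.08% of all genes higher and 1.44% in either direction. At an unadjusted p under 0.05 there were 4 of 33, against 13.6%. In DKO livers 0 of 33 passed in limma, against 0.113% of all genes, and 10 of 33 had an unadjusted p under 0.05, against 11.7% of all genes.

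Over the genes tested, the median log2 fold change in DKO/hA1 livers was -0.01 for the 33 genes and -0.02 for all genes, with 16 values above 0 and 17 below. In DKO livers it was 0.17 for the 33 genes and -0.01 for all genes, with 23 above 0 and 10 below. That split depended on the scaling. With libraries set to equal totals it was 15 above and 18 below, and the median of all genes was then -0.19. In DKO/hA1 livers the split at equal totals was 12 above and 21 below, and the median of all genes was -0.08. At equal totals more values therefore lay below 0 than above in both genotypes. Averaged over genotypes the split was 22 above and 11 below, with a median of 0.15 against -0.01 for all genes. At equal totals it was 17 above and 16 below, and the median of all genes was -0.14.

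In DKO livers the deposited FPKM values of Western diet and chow did not overlap for 10 of the 33 genes, all higher on Western diet, against 10.5% of all genes tested higher, 3.16% lower and 13.6% in either direction: Cpb2, F12, F2, Fga, Fgb, Fgg, Ggcx, Plaur, Plg and Procr. In DKO/hA1 livers there was no overlap for 12 of the 33, against 30.3% of all genes (15.6% higher and 14.7% lower). Of these 12, F7, Hrg, Plau, Plaur, Procr, Tfpi, Thbd and Vwf were higher on Western diet and F2, Klkb1, Serpinc1 and Serpind1 lower. Plaur and Procr were higher without overlap in both genotypes, but the share of all genes tested for which this held was not counted. Plaur entered the test mainly through Western diet libraries. The nearest Procr values in DKO livers were 1.37 FPKM on Western diet and 1.33 FPKM on chow. Scaling can change such overlaps, as it did for F2 and Plg in DKO livers. The 2 diet comparisons share no library.

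**Figure D5:**
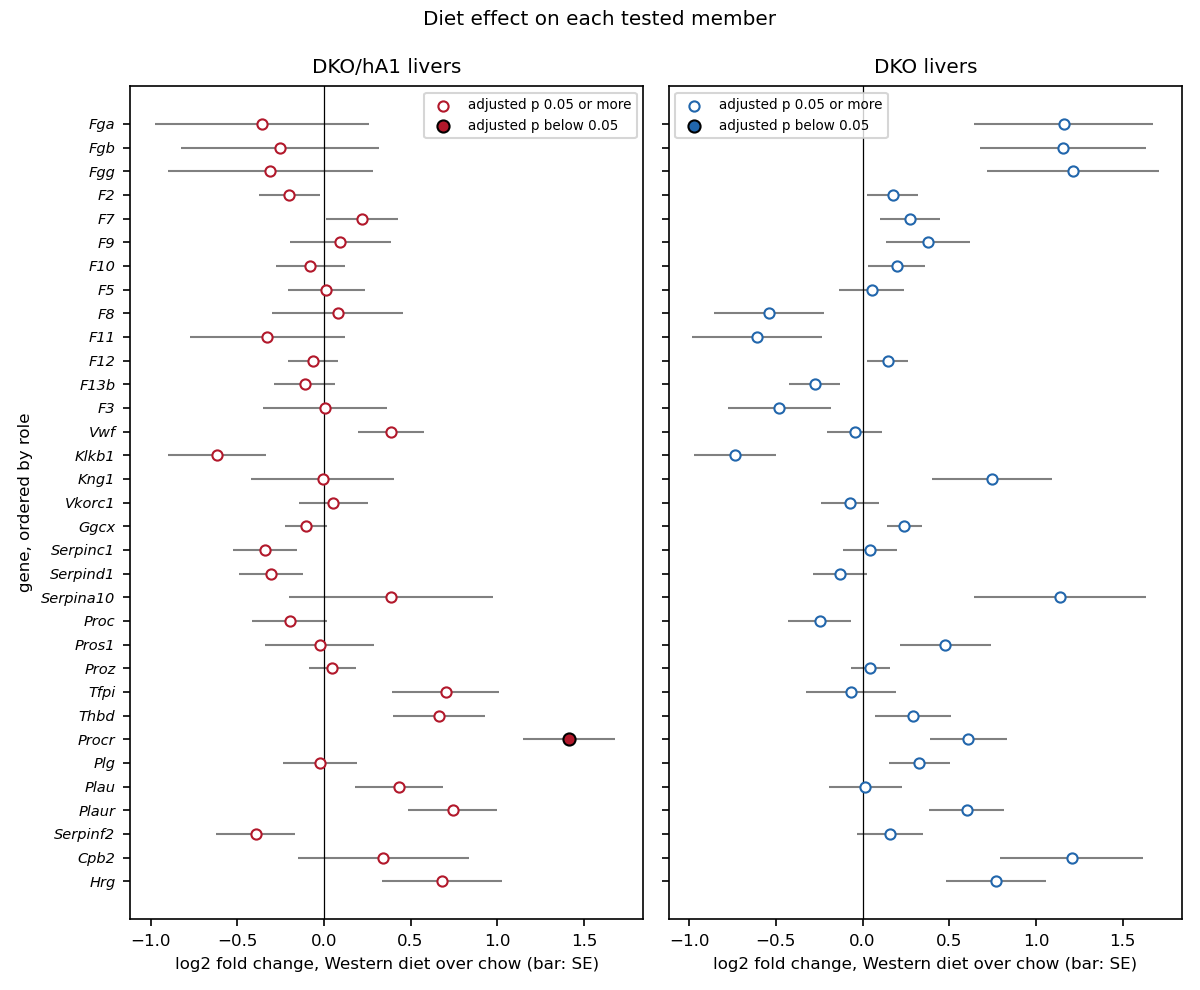
Log2 fold change between Western diet and chow for each gene tested, with its SE as a bar, in DKO/hA1 livers on the left and DKO livers on the right, where filled points passed an adjusted p of 0.05. Procr in DKO/hA1 livers (1.41 ± 0.27) is the only filled point, and the fibrinogen chains lie above 1 with wide bars in DKO livers and below 0 in DKO/hA1 livers.

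The effect of human APOA1 was compared on each diet. On Western diet 0 of the 33 genes passed in limma, as did 0 of all genes tested (0%), and 5 of 33 had an unadjusted p under 0.05, against 5.94% of all genes. The deposited values of DKO/hA1 and DKO livers did not overlap for 7 of the 33 on this diet, against 9.54% of all genes (4.38% higher and 5.16% lower): Procr was higher in DKO/hA1 livers, and F12, F2, Ggcx, Proz, Serpinc1 and Serpinf2 were lower. The values of F2 and Serpinc1 overlapped after scaling. Among the 7, Serpinf2 averaged 346 ± 93.1 FPKM in DKO/hA1 Western diet and 479 ± 71.2 FPKM in DKO Western diet. Its log2 fold change was -0.48 ± 0.20 (adjusted p = 0.813). The fibrinogen chains had log2 fold changes of -1.09 ± 0.55 (Fga), -0.93 ± 0.51 (Fgb) and -1.004 ± 0.529 (Fgg), with overlapping libraries.

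On chow 0 of the 33 genes passed, against 0.0779% of all genes, and 0 had an unadjusted p under 0.05, against 7.51%. The deposited values did not overlap for 6 of the 33, against 21.6% of all genes (12.3% higher and 9.28% lower). Of the 6, F2, Fga, Fgb and Fgg were higher in DKO/hA1 livers, and F13b and Proz lower. Those of F2 and Fga overlapped after scaling. The fibrinogen chains thus stood on opposite sides on the 2 diets, with 0.43 ± 0.59 for Fga, 0.47 ± 0.54 for Fgb and 0.52 ± 0.56 for Fgg on chow. Averaged over diets, 0 of 33 passed, against 0.0866% of all genes, with 4 of 33 against 8.21% at an unadjusted p under 0.05. The split was 6 above 0 and 27 below, and 19 above and 14 below at equal totals. For the difference between the diet effects, 0 of 33 passed, against 0.0173% of all genes, with 2 of 33 against 4.9% at an unadjusted p under 0.05.

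Among 57 further genes of clotting, platelets and fibrinolysis, 47 were tested. For diet averaged over genotypes 3 rose and 1 fell, against 2.8% of all genes tested higher and 1.21% lower. Fgl2, a membrane-bound prothrombinase of macrophages and endothelium, averaged 5.71 ± 0.241 FPKM in DKO/hA1 Western diet, 1.97 ± 0.744 FPKM in DKO/hA1 chow, 3.30 ± 1.03 FPKM in DKO Western diet and 2.68 ± 0.578 FPKM in DKO chow. It rose by 0.67 ± 0.13 averaged over genotypes (adjusted p = 0.019) and by 1.18 ± 0.20 in DKO/hA1 livers (adjusted p = 0.023). Entpd1, the ectonucleotidase CD39, which breaks down the ADP that activates platelets, averaged 5.21 ± 0.902 FPKM in DKO/hA1 Western diet, 1.66 ± 0.970 FPKM in DKO/hA1 chow, 3.18 ± 0.773 FPKM in DKO Western diet and 2.07 ± 0.756 FPKM in DKO chow, and rose by 0.84 ± 0.18 averaged over genotypes (adjusted p = 0.028). Tbxas1, thromboxane synthase, averaged 5.55 ± 0.863 FPKM in DKO/hA1 Western diet, 1.46 ± 1.28 FPKM in DKO/hA1 chow, 2.66 ± 0.714 FPKM in DKO Western diet and 2.14 ± 0.660 FPKM in DKO chow, and rose by 0.84 ± 0.20 averaged over genotypes (adjusted p = 0.038) and by 1.49 ± 0.30 in DKO/hA1 livers (adjusted p = 0.038). The averaged effect was called in 20 of 23 settings for Fgl2, 13 of 23 for Entpd1 and 8 of 23 for Tbxas1. All 3 stand beside the higher macrophage marker sums on Western diet given above. Of 10 platelet and megakaryocyte markers, 4 were tested and 1 of these rose averaged over genotypes, and Gp1ba, Gp1bb, Gp9, Gp5, Gp6 and Treml1 were at 0 in at least 1 library. Their summed FPKM was 31.9 to 38.6 in DKO/hA1 Western diet, 8.50 to 14.9 in DKO/hA1 chow, 16.8 to 28.8 in DKO Western diet and 15.4 to 16.6 in DKO chow. The part of these cells in the values was not tested.

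The gene that fell was Serpina1e, of the α1-antitrypsin family, with 4518 ± 814 FPKM in DKO/hA1 Western diet, 10431 ± 924 FPKM in DKO/hA1 chow, 5142 ± 1709 FPKM in DKO Western diet and 8348 ± 1052 FPKM in DKO chow. Its averaged effect was -1.03 ± 0.20 (adjusted p = 0.019), called in 19 of 23 settings, and reads of its near-identical copies may have been split among them by the authors' counting. None of the 47 passed in DKO livers or for genotype.

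Of 21 acute-phase genes, 7 rose with diet averaged over genotypes, with adjusted p-values of 0.0060 to 0.045, against 2.8% of all genes tested higher: Saa1, Saa2, Saa3, Saa4, Lcn2, Orm2 and Lrg1. In DKO/hA1 livers 1 of the 21 rose, Saa3, by 2.02 ± 0.37 (adjusted p = 0.029), against 1.08% of all genes higher, and none passed in DKO livers or for genotype. Saa1, which encodes a serum amyloid A apolipoprotein, had 519, 1192 and 28272 FPKM in DKO/hA1 Western diet, 99.7 and 571 FPKM in DKO/hA1 chow, 3693, 32501 and 15422 FPKM in DKO Western diet, and 240.4, 253, 74.3 and 97.3 FPKM in DKO chow. Its 3 highest libraries were the 3 with the highest fibrinogen. Fgl1, a fibrinogen-like protein of hepatocytes, had 305, 929 and 2465 FPKM in DKO/hA1 Western diet, 352 and 579 FPKM in DKO/hA1 chow, 1108, 3071 and 2383 FPKM in DKO Western diet, and 967, 631, 287 and 157 FPKM in DKO chow, with the same 3 libraries highest. Among 22 regulators of these genes tested, Cebpd, a transcription factor of the acute-phase response, had 1.74, 2.60 and 5.70 FPKM in DKO/hA1 Western diet, 0.957 and 1.13 FPKM in DKO/hA1 chow, 1.79, 4.69 and 3.73 FPKM in DKO Western diet, and 0.906 to 1.63 FPKM over the 4 DKO chow libraries, and rose by 0.93 ± 0.23 averaged over genotypes (adjusted p = 0.049). Socs3, a feedback inhibitor of interleukin-6 signalling, had 4.31, 5.41 and 29.4 FPKM in DKO/hA1 Western diet, 2.95 and 4.24 FPKM in DKO/hA1 chow, 17.1, 15.8 and 15.6 FPKM in DKO Western diet, and 9.15, 3.96, 2.07 and 2.24 FPKM in DKO chow, and its averaged effect was 1.47 ± 0.46 (adjusted p = 0.108).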

How the data were processed

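Liver RNA of 12 samples was sequenced. Per the submitters' processing notes, TopHat 1.3.2, Bowtie 0.12.8, SAMtools 0.1.19 and Cuffdiff were used with build mm10, and the values were taken as the authors' deposited FPKM. The files' gene models, strand setting and read numbers are not given in the sources used here. How reads shared by near-identical gene copies were assigned is likewise not given.

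Libraries were brought to a common scale with a trimmed mean of log ratios, without weights (trimming 0.3 of ratios and 0.05 of levels), leaving out 780 small RNA genes and 21 genes with a whole group at 0. Of 17890 genes left, the 11548 with at least 1 FPKM in 2 or more libraries were tested as log2(FPKM + 1), with all 12 libraries in 1 limma 3.58.1 fit (R 4.3.3, 4 group means, trended robust moderation) and Benjamini-Hochberg adjustment at 0.05. A fold change on this scale understates the change of low genes. The 7 comparisons were diet and genotype within each level of the other, averaged, and their interaction. Those within a genotype or diet share libraries with the averaged ones. The script was checked on simulated data with known changes. Tables were made with numpy 2.4.6 and pandas 2.3.3 and plots with matplotlib 3.10.9, in Python 3.11.15.

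The 34 genes and all lists were chosen with earlier results of these data known. Named were all 34 by role (per library, the fibrinogen chains, those called and the smallest p where none was called), and, of the other lists, genes called (up to 8 further pathway genes). Kng2, Fgl1, Saa1 and Socs3 were named after their values were seen. A gene of the further pathway list is not reported here. Alternatives were another added constant, other scalings, filters, moderation, a replicate block, the compared groups alone and each library left out.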

Additional observations from a re-analysis of the deposited data

Results flagged for a closer look

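Tfpi was 1.51 FPKM in DKO chow replicate 2, apart from 3.51 to 3.90 FPKM in the other 3 replicates. It was the only 1 of 34 groups, the DKO chow libraries of each gene, in which a library stood so far from the rest. Chance alone gives about 1 in 20 groups, so 1 of 34 is no more than chance gives. The library was also the lowest of its group in Procr and in summed endothelial markers. It had the lowest relative depth of the 12 libraries as well, 0.514, and the fewest genes at 1 FPKM or more, 10298. What part depth had in the Tfpi value was not tested.

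The diet effect on F2 in DKO/hA1 livers minus that in DKO livers was -0.37 on the log2 scale. It was flagged because, in the deposited FPKM values, all Western diet libraries lay below chow in DKO/hA1 livers and above chow in DKO livers. The same -0.37 is the genotype effect on Western diet minus that on chow. In the deposited values all DKO/hA1 libraries lay below DKO on Western diet and above DKO on chow. The share of all genes tested with either pattern was not counted. After scaling, only the DKO/hA1 diet groups still did not overlap for F2. The test of the difference gave an adjusted p of 0.961 (limma).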

How the results depend on the processing

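Of the 33 genes, 2 were called for diet averaged over genotypes. The number was 1 with equal totals, without a level filter, with a replicate block and when the 2 libraries highest in neutrophil markers were left out. It was 0 with a filter of 5 FPKM and without the 2 libraries lowest in endothelial markers, an alternative chosen after seeing the data, and 0 to 3 when single libraries were left out. For diet in DKO/hA1 livers 1 was called. The number was 0 with 0.1 FPKM added, equal totals, no level filter, a filter of 5 FPKM, only the groups compared, and without either pair of libraries, and 0 to 1 with single libraries left out. Procr was called in 20 of 22 settings averaged over genotypes (0.79 to 1.66) and in 13 of 23 in DKO/hA1 livers (1.14 to 2.26). The fibrinogen chains were called in 0 of 24 settings in DKO livers, with 0.84 to 1.58 for Fga, 0.86 to 1.53 for Fgb and 0.92 to 1.59 for Fgg. Hrg was called averaged over genotypes in 1 of 23 settings, without DKO Western diet replicate 1 (0.87, adjusted p = 0.048). No direction of a called value reversed. The cause of these changes was not tested, except that a filter of 5 FPKM removes Procr and Plaur from the test. Over all genes, the averaged diet comparison gave 463 calls and 38 without DKO/hA1 chow replicate 2, and that in DKO/hA1 livers gave 166 and 4. With the replicate block, 1 of the 33 genes was called averaged over genotypes and 1 in DKO/hA1 livers. The replicate numbers were not taken as a pairing, since deviations of same-numbered libraries correlated at -0.278 to 0.440. The labels carry a further number, whose meaning they do not give. It is shared by replicate 1 of both Western diet groups (correlation 0.440) and by both DKO/hA1 chow libraries and DKO chow replicate 3 (0.0689 and -0.0689). The deviations of the 2 DKO/hA1 chow libraries from their mean are equal and opposite. Their correlations with another library therefore always mirror each other and cannot show a shared effect. The number was not blocked and is never shared between diets.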
